A study of Mus musculus with 80 samples.

Results

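The proteasome subunit genes were followed in mouse kidney, on filters of spotted cDNA clones hybridised with RNA of 40 animals of the inbred strain C57BL/6. A clone was taken when the array annotation gave it exactly 1 gene symbol and that symbol had the form Psma to Psmg followed by a number. Of the 16896 clones on the filters, 9663 have 1 symbol, and 55 of these match, from 39 genes. The 2 clones of Psmc3ip and the 1 clone of Psme3ip1 match by their letters only, since these genes encode binding partners and not subunits, and they are described apart. That leaves 52 clones of 37 genes: 17 clones of 14 core genes (Psma and Psmb), 28 clones of 17 regulatory genes (Psmc and Psmd), 5 clones of 4 assembly genes (Psmg) and 2 clones of Psme3 and Psmf1.

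The proteasome is the protease that degrades proteins tagged with ubiquitin. Its core is a barrel of stacked rings, in which Psma subunits form the outer rings that gate the entry and Psmb subunits form the inner rings that hold the cutting sites. The regulatory particle caps the barrel: the Psmc subunits are ATPases that unfold the substrate and thread it into the core, and most Psmd subunits recognise ubiquitin, remove it or hold the cap together. The kidney relies on this route for protein turnover in its tubule cells, and loss of proteasome activity with age has been a recurring question in ageing research.

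All mice ate regular feed freely, and the labels give no treatment, transgene or other genotype. They fall into 8 groups of 5 by sex and by age, with ages of 17 to 44 days, 169 to 194 days, 476 to 499 days or 704 to 743 days. In the first of these ages, 5 of the 10 mice were 17 to 21 days old. By replicate, its males were 43, 44, 19, 17 and 40 days old and its females 17, 19, 21, 40 and 33. A male and a female of the same round can differ in age there, so sex cannot be fully told apart from age within that group. Whole kidney RNA of each mouse was labelled with radioactive phosphorus and put on a filter of set A and a filter of set B, whose clones differ, so every group has 5 mice for every clone. For 1 male of 714 days a description field names another mouse, and its title, sex and age fields were followed here.

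The deposited values are scores with mean 0 and SD 1 over the spots of an array. A score says how far a spot lies from its array's mean, in units called array SDs here, and no difference below is a fold. Each array's mean correlation with the other arrays of its set was 0.888 to 0.965 in set A and 0.915 to 0.975 in set B, and 5 mice had an array that stood apart from the rest. In set A these were the males of 17 to 44 days, replicate 1, and of 169 to 194 days, replicate 4. In set B they were the males of 17 to 44 days, replicates 1 and 5. The females of 169 to 194 days, replicate 5, and of 704 to 743 days, replicate 4, also stood apart there. Serial numbers in the titles run in 5 blocks of 8 mice, called rounds of arrays here, and each block covers every age group with a male and a female. The rounds are inferred from the numbers, and no label says what they stand for. Kidney identity was checked on proximal tubule markers: 4 of 19 listed genes are measured, by 5 clones, and these lie at a median brightness percentile of 88.5, with none among the dimmest 25% of spots. No listed T cell or adipocyte marker has a clone with 1 symbol. For markers of macrophages (6 clones) and endothelium (3 clones), 2 and 1 clones are among the dimmest 25%, and no clone of either list passed a test by age or sex. Of 17 erythroid clones of 3 genes, 2 were higher and 15 lower at 704 to 743 than at 169 to 194 days, where 50.6% of all clones were higher. The B cell marker Ighm (spot 1606) was higher there by 0.341 ± 0.0689 array SD (SE). No clone of these 2 lists passed a test either, and their part in the values below was not tested.

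No proteasome clone passed the test for age or sex in these kidneys. Limma, with p-values adjusted over all 16896 clones by the Benjamini-Hochberg method, called 0 of the 52 clones in any of 6 comparisons: the slope with age, 169 to 194 against 17 to 44 days, 704 to 743 against 169 to 194 days, any difference among the 4 age groups, male against female, and a sex difference that varies with age. The background was as low: 0% of all clones were called in each age comparison and in the last one, and 0.107% (18 clones) between the sexes. Ordinary least squares on the same values also called 0 of the 52 in every comparison. In this bulk tissue, fewer cells of a type and less RNA per cell cannot be told apart.

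At an unadjusted p under 0.05 the members were counted against the same share of all clones. The age slope gave 6 of 52 (11.5%, against 5.2% of all clones). Both the comparison of 169 to 194 with 17 to 44 days and that of 704 to 743 with 169 to 194 days gave 3 of 52 (5.77%), against 5.08% and 2.36% of all clones. The test of any age difference gave 2 of 52 (3.85%, against 3.39%), sex gave 0 of 52 (against 4.48%) and the sex difference that varies with age gave 2 of 52 (3.85%, against 3.23%). Of the 6 clones with this p for the slope, the 4 that were higher with age are all regulatory and the 2 that were lower are Psma clones of the core, and none of them passed after adjustment. After the subtraction of neighbouring spots described below, 6 of 52 clones again had this p (11.5%, against 7.28% of all clones). They did not divide this way: Psmb1 of the core was higher with age and Psmd5, of the regulatory names, was lower.

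The directions were close to even. With age, 28 of 52 clones had a slope above 0, with a median of 0.00405 array SD per year, against 50.3% and 0.000255 for all clones. Core clones had 8 of 17 slopes above 0 (median -0.00297) and regulatory clones had 17 of 28 (median 0.0104). Between 704 to 743 and 169 to 194 days, 28 of 52 were higher in the older mice, with a median of 0.0127 array SD, against 50.6% and 0.000988 for all clones. The 95% interval of a member reached a median of 0.0804 array SD per year either side of its slope and 0.172 array SD either side of an age difference. Over the 52 clones, the outermost bounds were -0.304 and 0.229 per year for the slope and -0.475 and 0.397 for 704 to 743 against 169 to 194 days.

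**Figure D1:**
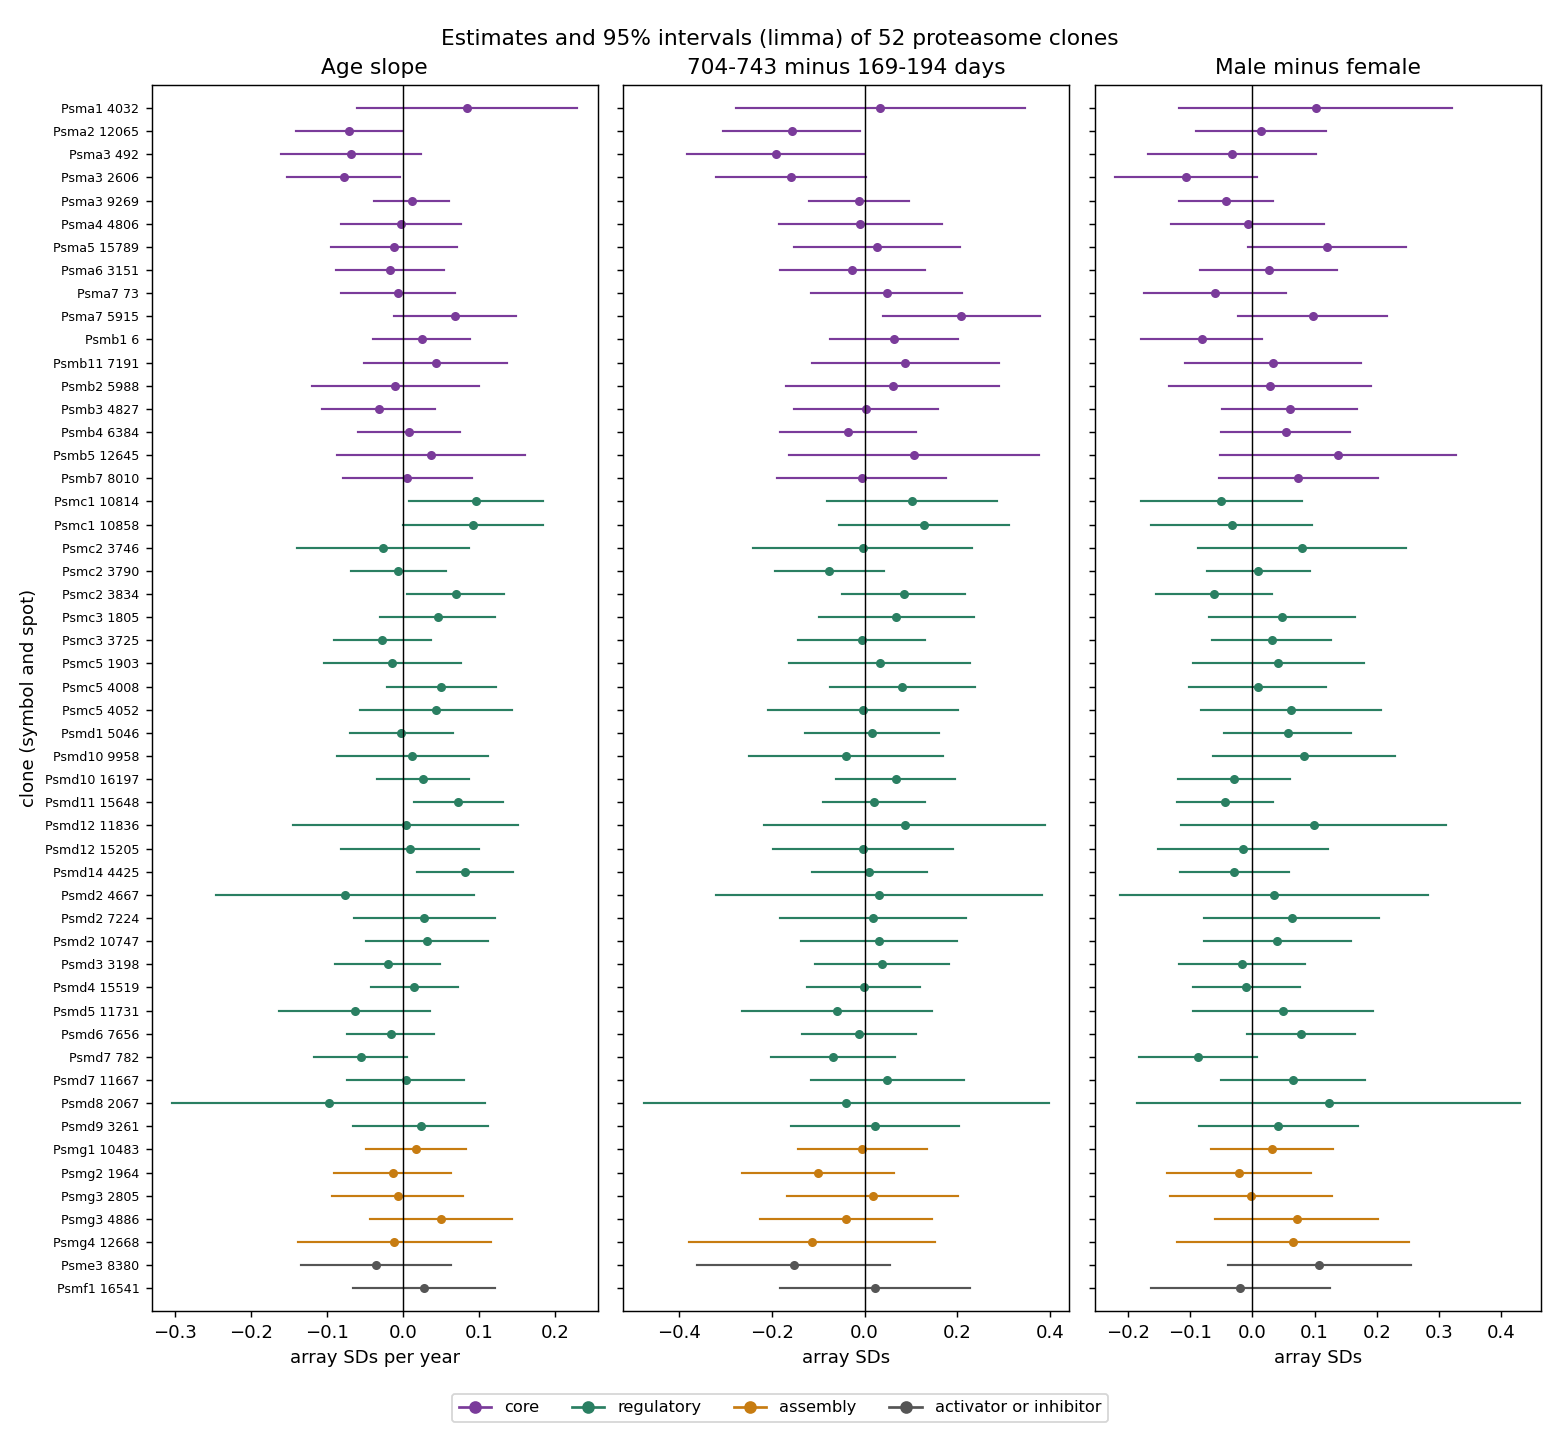
Estimates (points) and 95% limma intervals (lines) for the 52 clones, named by gene symbol and spot number: the age slope in array SDs per year, 704 to 743 minus 169 to 194 days, and male minus female, both in array SDs. Colours mark core, regulatory, assembly and activator or inhibitor clones; most intervals span 0, and none of the 52 clones was called in any of these comparisons.

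Among the regulatory clones, Psmd14 had the smallest p for the slope, for 169 to 194 against 17 to 44 days and for any age difference, and Psmc1 (spot 10858) for 704 to 743 against 169 to 194 days. Psmd14 is the metal-dependent enzyme of the cap that cuts the ubiquitin chain off a substrate. At spot 4425 its scores ran from -0.165 to 0.255 (median 0.119) in the 10 mice of 17 to 44 days, and from 0.0130 to 0.421 (median 0.312) in those of 169 to 194 days. They ran from 0.0435 to 0.440 (median 0.314) at 476 to 499 days and from 0.0410 to 0.534 (median 0.301) at 704 to 743 days. The youngest mice were lower, the 3 older groups lay together, and all 4 ranges overlap.

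The Psmd14 score at 169 to 194 days exceeded that at 17 to 44 days by 0.187 ± 0.0613 array SD (SE, 95% interval 0.0631 to 0.311), and 10 of 10 couples of the same sex and round had this direction. The clone was picked by its p in this comparison, so the count of couples is no further support. The same holds for the couples of other clones picked by p below. The adjusted p in limma was 0.933 (unadjusted 0.00407), and leaving out single mice gave adjusted p-values no lower than 0.651. From 169 to 194 to 704 to 743 days the difference was 0.0100 ± 0.0613. Its slope over all ages was 0.0811 ± 0.0311 array SD per year (adjusted p = 0.937 in limma).

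Psmd11, which braces the cap against the ATPase ring and the core, had a like course. At spot 15648 its scores were -0.00763 to 0.617 (median 0.464) at 17 to 44 days, 0.359 to 0.633 (median 0.552) at 169 to 194 days, 0.513 to 0.661 (median 0.550) at 476 to 499 days and 0.417 to 0.758 (median 0.542) at 704 to 743 days. The low values came mainly from the males of 17 to 44 days, whose mean was 0.267 ± 0.214 (SD, n = 5) beside 0.506 ± 0.105 in the females of that group. The lowest of these males were replicate 5 (-0.0076, 40 days old) and replicate 1 (0.184, 43 days old). The set B arrays of both stood apart from the rest. Replicate 4 scored 0.202 on an array that did not stand apart. The difference of 169 to 194 from 17 to 44 days was 0.137 ± 0.0540 array SD (SE, 8 of 10 couples, adjusted p = 0.933 in limma), and the slope was 0.0721 ± 0.0290 per year (adjusted p = 0.937).

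Psmc1, an ATPase of the ring that opens the core, is measured by 2 clones. Spot 10814 ran from -0.0613 to 0.499 (median 0.330) at 17 to 44 days and from 0.153 to 1.31 (median 0.405) at 704 to 743 days. Spot 10858 ran from -0.439 to 0.116 (median -0.0790) and from -0.260 to 0.732 (median 0.0253) in the same groups. The groups overlap, and the highest score at each spot belongs to 1 female of 704 to 743 days, replicate 5. The slopes were 0.0958 ± 0.0436 and 0.0914 ± 0.0459 array SD per year (adjusted p = 0.937 for each in limma), and without that female the first fell to 0.0549. At spot 10858 the difference of 704 to 743 from 169 to 194 days was 0.129 ± 0.0906 (7 of 10 couples), and 0.0723 without her. The next highest scores, 0.671 at spot 10814 and 0.711 at spot 10858, belong to the female of 704 to 743 days, replicate 4. Her set B array, which holds both spots, stood apart from the rest.

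The other regulatory clones with small p-values were Psmc2 at spot 3834, another ATPase, and Psmd7 at spot 782, the partner that Psmd14 pairs with. Psmc2 had a slope of 0.0689 ± 0.0317 array SD per year. Its score at 704 to 743 days exceeded that at 169 to 194 days by 0.0842 ± 0.0651 in 6 of 10 couples, and 0.0519 without the male of 169 to 194 days, replicate 5. Psmd7 had a slope of -0.0560 ± 0.0302. Psmd3, a scaffold subunit of the cap, was 0.114 array SD lower at 169 to 194 than at 17 to 44 days (estimate -0.114 ± 0.0712, 7 of 10 couples), and -0.0513 without the male of 169 to 194 days, replicate 4. None of these passed the test.

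**Figure D2:**
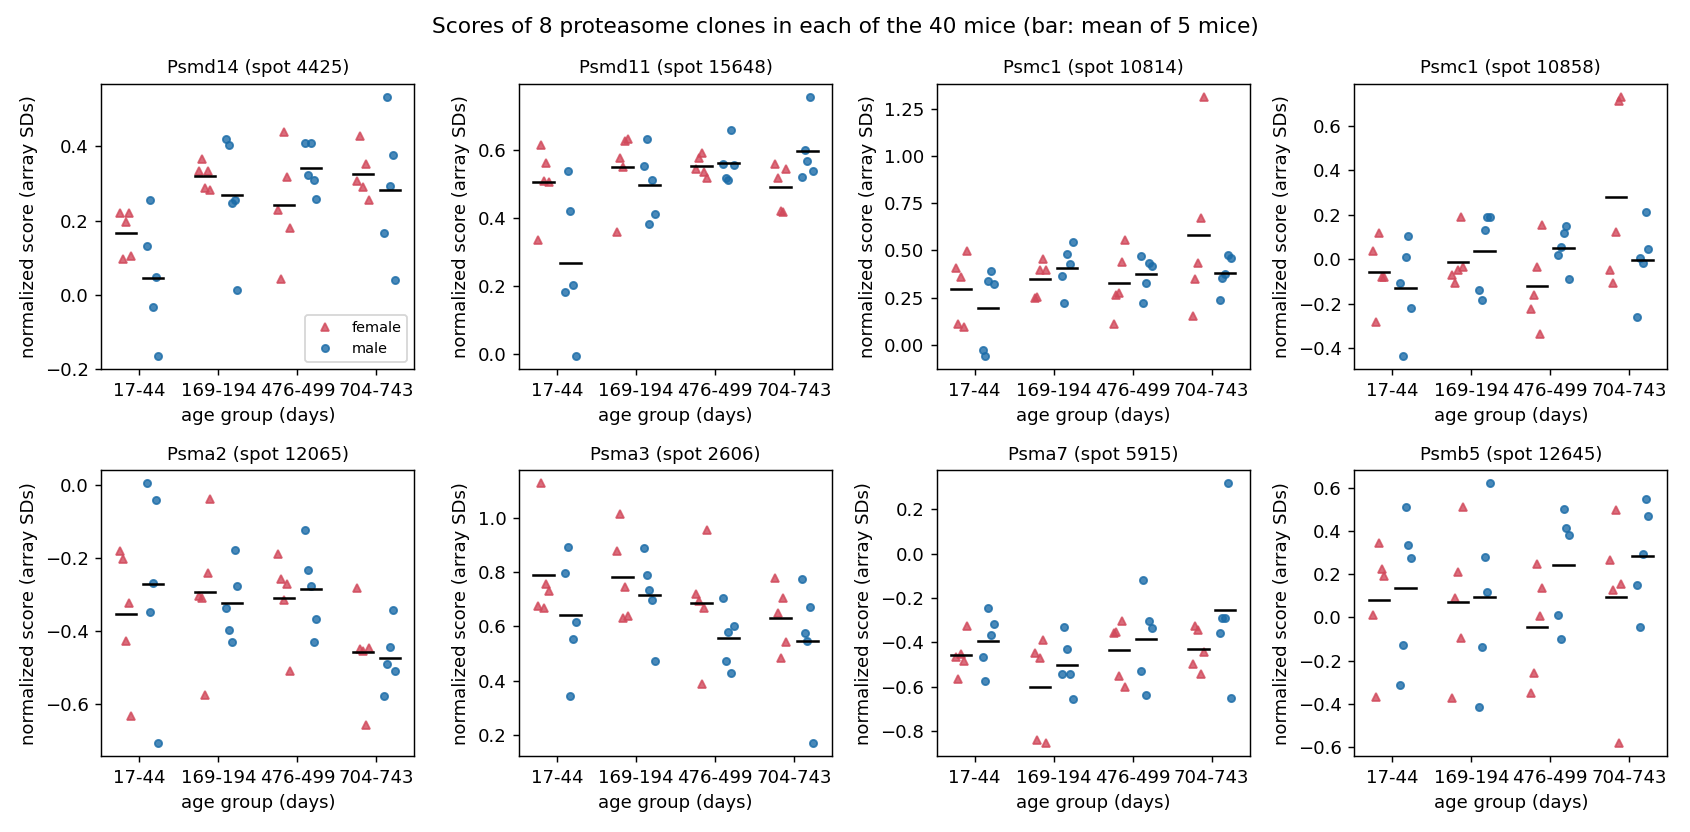
Normalized scores in array SDs of 8 clones in each of the 40 mice, by age group in days, with females as triangles and males as circles; the bar is the mean of 5 mice. The youngest mice are low on average for Psmd14 and the youngest males for Psmd11, 1 female of 704 to 743 days is highest at both Psmc1 spots, and the age groups overlap for all 8 clones.

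In the outer rings of the core, the clones of Psma2, Psma3 and Psma7 had the smallest p-values, and not all in one direction. Psma2 at spot 12065 scored -0.706 to 0.00475 (median -0.295) at 17 to 44 days, -0.573 to -0.0373 (median -0.306) at 169 to 194 days, -0.510 to -0.122 (median -0.273) at 476 to 499 days and -0.657 to -0.281 (median -0.451) at 704 to 743 days. The oldest mice were lowest on average, within the range of the youngest. The difference of 704 to 743 from 169 to 194 days was -0.157 ± 0.0731 array SD (SE, 8 of 10 couples, adjusted p = 1.000 in limma), and the slope was -0.0714 ± 0.0347 per year.

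Psma3 is measured at 3 spots. Spot 2606 scored 0.344 to 1.13 (median 0.702), 0.472 to 1.01 (median 0.739), 0.387 to 0.955 (median 0.634) and 0.169 to 0.779 (median 0.612) from the youngest to the oldest group. All 10 couples were lower at 704 to 743 than at 169 to 194 days, by a mean of 0.159 array SD (estimate -0.159 ± 0.0799, unadjusted p = 0.0538, adjusted p = 1.000 in limma). Spot 492 gave -0.191 ± 0.0945 in 7 of 10 couples, and spot 9269 gave -0.0124 ± 0.0530. The slopes of these 3 spots were -0.0785 ± 0.0369, -0.0685 ± 0.0456 and 0.0110 ± 0.0244 per year.

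Psma7 at spot 5915 lay the other way. Its scores were -0.855 to -0.330 (median -0.508) at 169 to 194 days and -0.653 to 0.317 (median -0.352) at 704 to 743 days, which overlap. The difference was 0.208 ± 0.0838 array SD (8 of 10 couples, unadjusted p = 0.0173, adjusted p = 1.000 in limma), and 0.137 without the male of 704 to 743 days, replicate 4. The same clone was 0.125 array SD lower at 169 to 194 than at 17 to 44 days (estimate -0.125 ± 0.0838, 7 of 10 couples). The other Psma7 clone, spot 73, had means of 0.0937 at 17 to 44, 0.0157 at 169 to 194 and 0.0634 at 704 to 743 days. Both changes had the direction seen at spot 5915, where the SD between mice within a group at spot 73 was 0.179. The slope at spot 73 was -0.00707 ± 0.0375 per year.

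The inner rings of the core hold the cutting sites. Psmb5, the subunit that cuts after bulky hydrophobic residues, scored -0.366 to 0.511 (median 0.208) at 17 to 44 days, -0.415 to 0.620 (median 0.105) at 169 to 194 days, -0.351 to 0.502 (median 0.0734) at 476 to 499 days and -0.581 to 0.547 (median 0.210) at 704 to 743 days. Its slope was 0.0364 ± 0.0615 array SD per year. Psmb7, which cuts after basic residues, had group means of -0.298, -0.260, -0.299 and -0.266 from the youngest to the oldest mice, and a slope of 0.00510 ± 0.0421. Each of these slopes was smaller than its SE. Psmb6 and the subunits that replace the cutting subunits in immune cells, Psmb8, Psmb9 and Psmb10, have no clone with 1 symbol and are not analysed here. Psmb11, known as the cutting subunit of thymic epithelium, has a clone at spot 7191 that is not among the dimmest 25% of spots, and its slope was 0.0424 ± 0.0467.

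The assembly factors help the core rings form. Psmg3 at spot 4886 scored -0.565 to -0.167 (median -0.289) at 17 to 44 days and -0.325 to 0.922 (median -0.197) at 169 to 194 days. The highest value is 1 male of 169 to 194 days, replicate 4. The difference of 0.217 ± 0.0914 array SD (8 of 10 couples, adjusted p = 0.933 in limma) fell to 0.105 without him. The other Psmg3 clone, at spot 2805, had a slope of -0.00727 ± 0.0427 beside 0.0493 ± 0.0462 at spot 4886. Psmg1, Psmg2 and Psmg4 had slopes of 0.0169, -0.0138 and -0.0118 per year.

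Psme3 encodes an activator of the core found in the nucleus and Psmf1 an inhibitor, and both clones are among the dimmest 25%. Their slopes were -0.0359 ± 0.0492 and 0.0274 ± 0.0466 array SD per year. Psmd5, Psmd9 and Psmd10 carry subunit names but are known as chaperones that help build the ATPase ring. Psmd5 had a slope of -0.0643 ± 0.0495, Psmd9 of 0.0231 ± 0.0441, and the 2 Psmd10 clones of 0.0119 ± 0.0491 and 0.0261 ± 0.0301.

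Among the 52 clones, the means of the 4 age groups spanned most at Psmd8 (spot 2067, a cap subunit), by 0.284 array SD, where the SD between mice within a group was 0.526. That span was 0.133 without the male of 17 to 44 days, replicate 1, who scored 1.38 beside a median of -1.25 in his age group. They spanned 0.246 at Psma1 (spot 4032, SD 0.370), 0.239 at Psmc1 (spot 10814), 0.235 at Psmd2 (spot 4667, SD 0.419) and 0.233 at Psmc1 (spot 10858). Without the same male the Psmd2 span was 0.0322, and without the female of 704 to 743 days, replicate 5, the Psmc1 span at spot 10814 was 0.147. The Psmd8 and Psmd2 clones are among the 14 of 52 in the dimmest 25%. The narrowest span was 0.0165, at Psma4 (spot 4806). Psmd2, a subunit on which ubiquitin carriers dock, was 0.235 array SD lower at 169 to 194 than at 17 to 44 days at spot 4667 (estimate -0.235 ± 0.173, 6 of 10 couples), but 0.00319 higher without the male of 17 to 44 days, replicate 1.

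Between the sexes, 33 of 52 clones (63.5%) were higher in males, with a median of 0.0324 array SD, against 49.2% and -0.00117 for all clones. Of the core clones 11 of 17 were higher in males (median 0.0281), and of the regulatory clones 18 of 28 (median 0.0374). No clone had an unadjusted p under 0.05 in limma, and the 95% intervals reached a median of 0.122 array SD either side of the estimate, with outermost bounds of -0.221 and 0.431. A count of clones with the same direction is no test here, since clones of 1 array share that array. Of the 5 proximal tubule clones 2 were higher in males, and of the 12 fibroblast and matrix clones 7. Of 7 adrenal marker clones 3 were higher and 4 lower in males. Of these 1 was called, Hsd3b1 (spot 4261), lower in males (estimate -0.280 ± 0.0535, adjusted p = 0.00788 in limma). The summed adrenal score ran from 2.18 to 4.27 over the mice, and its part in the values here was not tested.

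Psma5 at spot 15789, an outer ring subunit and a dim spot, had the smallest p toward males. The 20 males scored -1.27 to -0.703 (median -1.01) and the 20 females -1.65 to -0.746 (median -1.09). The difference was 0.120 ± 0.0627 array SD, in 13 of 20 couples of the same age group and round. Psmd6, a cap scaffold subunit at a dim spot, was 0.0776 ± 0.0429 higher in males (12 of 20 couples). Psma7 at spot 5915 was 0.0969 ± 0.0592 higher (12 of 20), and 0.0611 without the male of 704 to 743 days, replicate 4.

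Toward females the smallest p belonged to Psma3 at spot 2606. The males scored 0.169 to 0.891 (median 0.609) and the females 0.387 to 1.13 (median 0.699), an estimate of -0.107 ± 0.0565 array SD for male minus female that 15 of 20 couples shared. Psmd7 at spot 782 had -0.0878 ± 0.0466 and Psmb1 at spot 6, an inner ring subunit without a cutting site, -0.0819 ± 0.0481, each in 12 of 20 couples. The cutting subunits Psmb5 and Psmb7 had 0.138 ± 0.0940 (14 of 20 couples) and 0.0739 ± 0.0634 (12 of 20). Adjusted p in limma was 0.982 for each clone named for sex, and male and female ranges overlap at every one of them.

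The sex difference by age was largest in F for 3 regulatory clones, none of which passed the test (adjusted p = 1.000 in limma). Psmc2 at spot 3790 had male minus female differences of -0.0894, 0.0987, 0.190 and -0.162 array SD from the youngest to the oldest group (F = 3.94, unadjusted p = 0.0151). In the oldest group its 5 males scored 0.0588 to 0.388 and its 5 females 0.317 to 0.535, which overlap. Psmd11 had -0.238, -0.0507, 0.00750 and 0.105 (F = 3.58, unadjusted p = 0.0222). The first of these values includes the youngest males, replicates 1 and 5, whose set B arrays stood apart. Psmc1 at spot 10858 had -0.0719, 0.0517, 0.171 and -0.284 (F = 2.30, unadjusted p = 0.0922). In the oldest group its females of replicates 4 and 5 scored 0.711 and 0.732, and the other females -0.106 to 0.121. The set B array of replicate 4 stood apart from the rest.

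Several clones of 1 gene give a check on a gene's value. Of the 37 genes, 11 have 2 or 3 clones, and in 3 of the 11 (Psmc1, Psmd10 and Psmd12) all clones had slopes of the same sign. The clones of Psmc2 sloped by -0.0271 (spot 3746), -0.00644 (spot 3790) and 0.0689 (spot 3834) array SD per year. Psmc5, an ATPase, had -0.0144, 0.0501 and 0.0431, and Psmc3, another ATPase, 0.0453 and -0.0278. Psmd2 had -0.0769, 0.0278 and 0.0309, and Psmd7 had -0.0560 and 0.00291. For sex, all clones had the same sign in 5 of the 11 genes, and for each pair of age groups in 4 of the 11. No such count over the other genes with several clones stands beside these, so they are not read as agreement beyond chance.

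Across the 40 mice the 19 pairs of clones of the same gene had a median Pearson r of 0.117, with 12 of 19 above 0. Over the 3453 such pairs of all genes the median was 0.0227, with 53% above 0. The 2 Psmc1 clones, 44 spots apart in set B, correlated most: r = 0.787 and rho = 0.696, each with a permutation p of 1e-05, the smallest 100000 resamples can give, and 0.00019 adjusted over the 19 pairs. Without the 2 mice farthest from the median r was 0.643, it was 0.659 among residuals with the round as a block, and it was above 0 in 5 of 5 rounds. Within a round r ran from 0.446 to 0.962.

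Other pairs agreed less. Psma3 spots 492 and 2606 had r = 0.366 and rho = 0.389 (adjusted permutation p = 0.121 and 0.0543; r = 0.431 without the 2 farthest mice). Psmc5 spots 4008 and 4052 had r = 0.341 and rho = 0.453 (adjusted permutation p = 0.121 and 0.0260; r = 0.518 without the 2). These spots are 44 apart, and r was 0.0188 after the subtraction of neighbouring spots described below. Psmc2 spots 3746 and 3790 had r = 0.114 and rho = 0.448 (adjusted permutation p = 0.626 and 0.0260; r = 0.562 without the 2). They are also 44 apart, and r was 0.0203 with the round as a block and -0.163 after that subtraction. The Psmd7 clones had r = -0.206 and rho = -0.0232 (adjusted permutation p = 0.300 and 0.937), and r was above 0 in 0 of 5 rounds. Psma7 gave r = -0.0333 and rho = -0.0114.

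**Figure D3:**
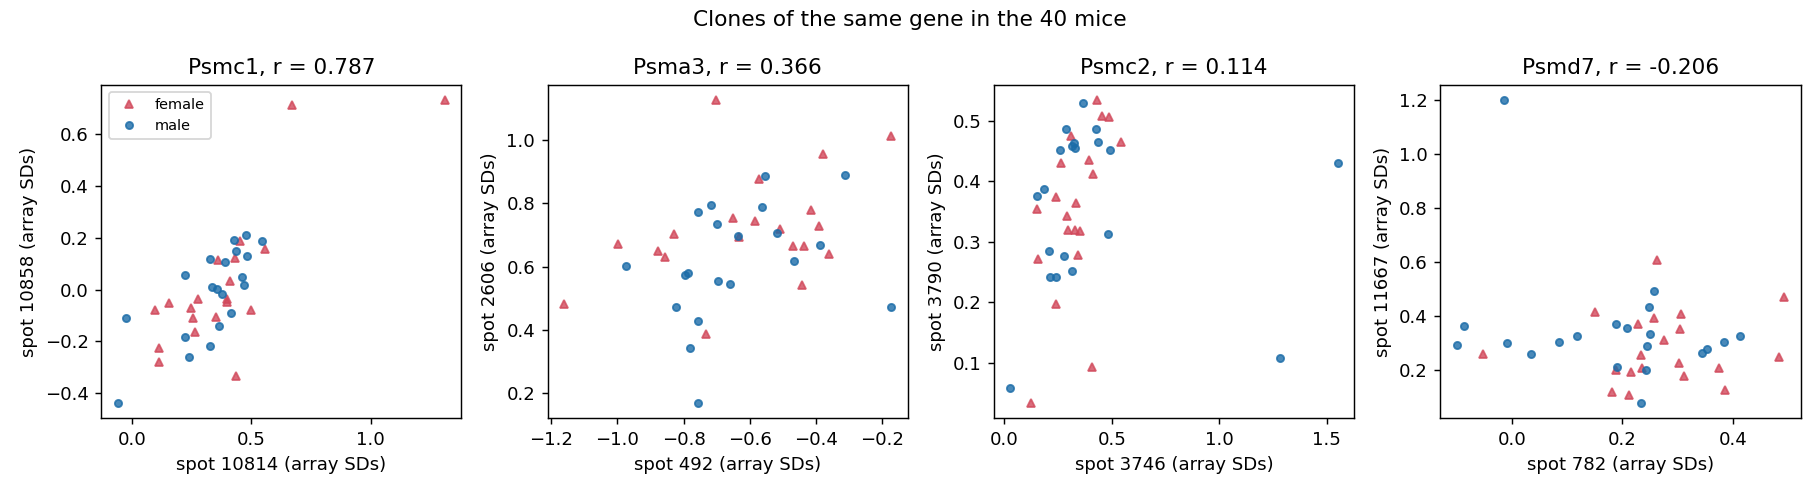
Scores in array SDs of 2 clones of the same gene in the 40 mice (triangles: females, circles: males) for Psmc1, Psma3, Psmc2 and Psmd7, with Pearson r above each panel. The Psmc1 clones follow each other, with 2 females of 704 to 743 days at the top, while the Psmd7 clones do not.

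Spots with nearby numbers moved together whatever their gene. With the round as a block, residuals of clones of different genes had a median r of 0.539 in set A and 0.584 in set B at neighbouring spot numbers, 0.540 and 0.618 at numbers 22 apart, 0.438 and 0.526 at numbers 44 apart, and -0.00600 and -0.103 at numbers 800 apart. The 39 pairs of clones of the same gene 44 apart in set B had a median of 0.692, beside the 0.659 of Psmc1. Whether spot numbers follow positions on the filter is not given in the sources used here.

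The fits were therefore repeated after the median deviation of 12 clones of other genes with nearby numbers was subtracted from each clone in each mouse, a step added after the data were seen. The median SD between mice within a group fell from 0.193 to 0.129 array SD over the 52 clones, and was smaller for 45 of them, against 94.1% of all clones. Limma then called 0 of the 52 in each of the 6 comparisons (lowest adjusted p = 0.585 for age and 0.750 for sex), with 1 clone of all called for the slope and 37 for sex. Of the 28 regulatory slopes 17 became smaller in size and 23 kept their sign. Psmd14 went from 0.0811 to 0.0242 array SD per year, Psmd11 from 0.0721 to 0.0204, Psmc1 (spot 10814) from 0.0958 to 0.0618, and Psmd7 (spot 782) from -0.0560 to 0.00115, while Psmc3 (spot 1805) went from 0.0453 to 0.0726 and Psmd2 (spot 7224) from 0.0278 to -0.0443. At 169 to 194 against 17 to 44 days Psmd14 went from 0.187 to 0.0844 and Psmd11 from 0.137 to 0.0789, while Psmg3 (spot 4886) went from 0.217 to 0.199.

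Of the 17 core slopes 9 became smaller in size and 13 kept their sign. Psma2 sloped by -0.0599 and Psma3 (spot 2606) by -0.0507 per year, and at 704 to 743 against 169 to 194 days they had -0.111 and -0.122, with Psma7 (spot 5915) at 0.122 and Psma3 (spot 492) at -0.0487. Psma3 at spot 9269 turned from -0.0124 to 0.0152 in that age comparison, and the slope of Psma7 at spot 73 from -0.00707 to 0.0155. The smallest p then went to Psmb1, with a slope of 0.0560 ± 0.0209 (adjusted p = 0.585 in limma), and for sex to Psme3, 0.104 ± 0.0419 higher in males (adjusted p = 0.750). Males were higher at 37 of 52 clones (71.2%), against 53.2% of all clones. The Psmc1 clones correlated at r = 0.864, and at 0.796 among residuals with the round as a block. The same-gene pairs 44 apart in set B had a median of 0.469 among residuals. The 19 proteasome pairs had a median of -0.0265 without the block, with 9 above 0.

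**Figure D4:**
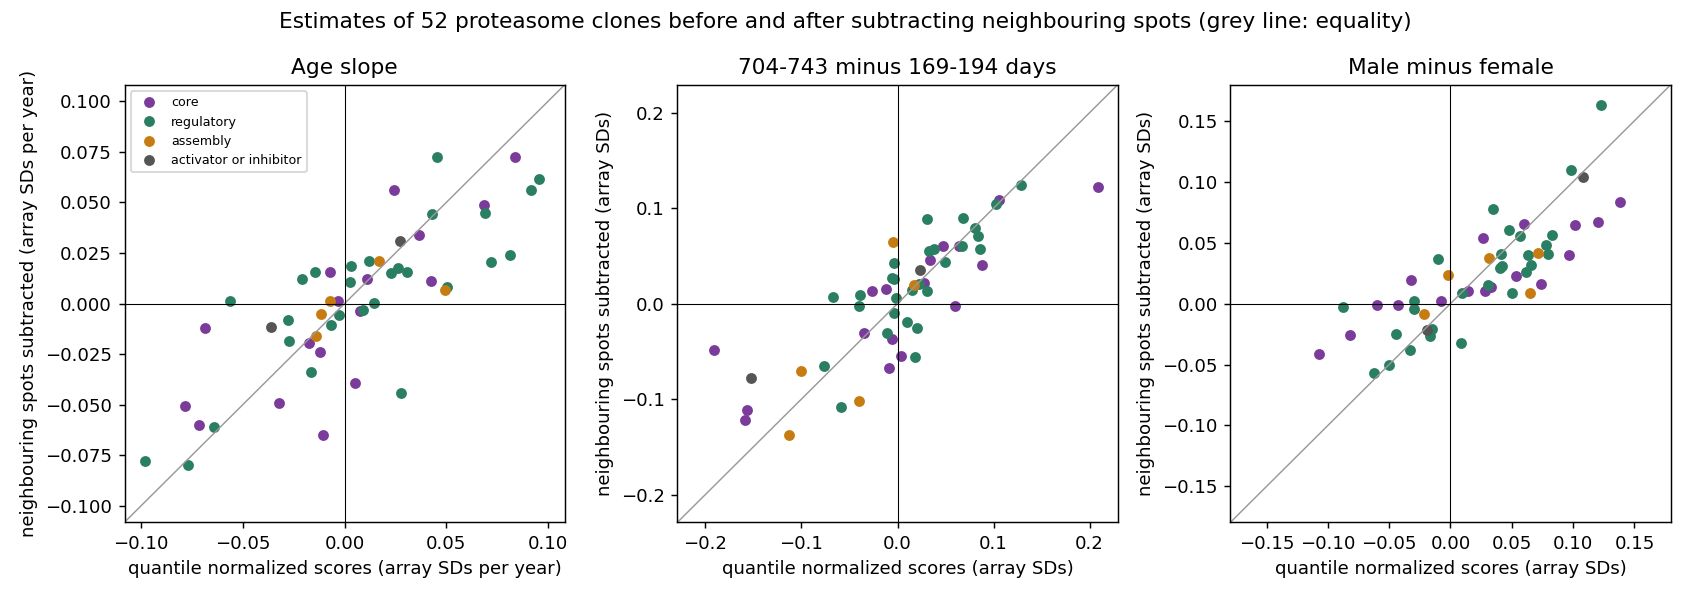
Each point is 1 of the 52 clones, with its estimate from the quantile normalized scores on the x axis and after subtraction of neighbouring spots on the y axis, for the age slope (array SDs per year), 704 to 743 minus 169 to 194 days and male minus female (array SDs). Points between the grey line of equality and the horizontal line at 0 are estimates that shrank, as for Psmd14 (0.0811 to 0.0242 per year).

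To see whether the complex shifted as a whole, the deviation of each clone from its own mean was averaged within each mouse. Core clones averaged 0.00206 ± 0.0388 (SD, n = 10), 0.00153 ± 0.0672, -0.00764 ± 0.0440 and 0.00405 ± 0.0551 array SD from the youngest to the oldest group. Regulatory clones averaged -0.00605 ± 0.0428, -0.0119 ± 0.0417, 0.00916 ± 0.0521 and 0.00876 ± 0.0471. Every difference between age means was smaller than the SD between mice of a group. That SD is the spread of single mice and not the uncertainty of a mean, and no test was run on these averages. The difference of 704 to 743 from 169 to 194 days was 0.00252 for the core and 0.0206 for the regulatory clones, above 0 in 4 and 3 of 5 rounds.

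Males averaged above females by 0.0244 array SD for the core (12 of 20 couples, 5 of 5 rounds), by 0.0226 for the regulatory clones (14 of 20 couples, 4 of 5 rounds) and by 0.0246 for all 52 (16 of 20 couples, 5 of 5 rounds). These are descriptions with no test. The SD of single mice within a group was 0.0512, 0.0423 and 0.0372, which is not the uncertainty of these differences between means of 20 mice. After subtraction of neighbouring spots the 3 differences were 0.0234, 0.0223 and 0.0232. They were not repeated without single mice, and single spots weigh in them. The male of 17 to 44 days, replicate 1, had a regulatory average of 0.0837, with 1.38 at Psmd8 and 1.24 at Psmd2 (spot 4667). The female of 169 to 194 days, replicate 5, had -0.0925, with -3.14 at Psmd12 (spot 11836). Both had an array that stood apart. The lowest regulatory average, -0.102, was that of a male of 704 to 743 days, replicate 1. The round took 26.9% of the variance of the core average, more than age group (0.815%) or sex (5.95%), with round means from -0.0263 to 0.0453. For the regulatory average the round took 3.82%, age group 4.23% and sex 6.42%. With neighbouring spots subtracted the round took 39.7% of the core average and 10.4% of the regulatory one.

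**Figure D5:**
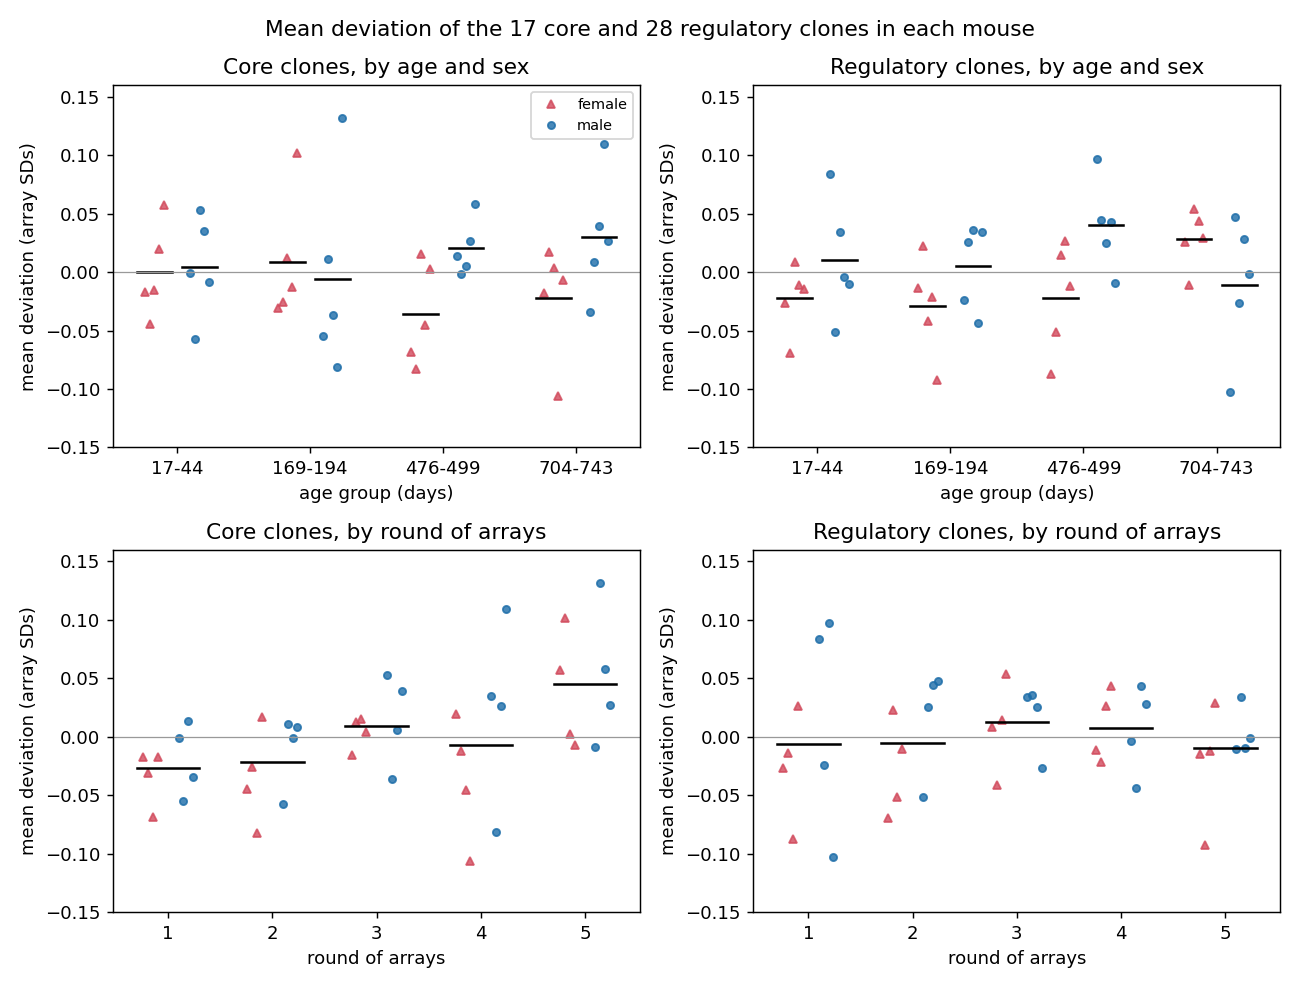
Mean deviation in array SDs of the 17 core clones and the 28 regulatory clones in each mouse, by age group and sex (bars: mean of 5 mice) and by round of arrays (bars: mean of 8 mice), with females as triangles and males as circles. Ages overlap throughout, and the core average is highest in round 5, at 0.0453.

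Variation of the subunits from mouse to mouse was described by the correlations between clones. With group means removed, core clones of set A correlated at a mean r of -0.0342 over 78 pairs and regulatory clones at 0.0214 over 136 pairs, where all clones of set A had 0.00163. In set B the 11 regulatory clones had 0.0138 over 55 pairs and the 4 core clones 0.122 over 6 pairs, where all clones had 0.00199. The value of those 4 clones was 0.257 with the round as a block and -0.126 with neighbouring spots subtracted as well. Single pairs ran from -0.737 to 0.830. The points share arrays and nearby spots, and these values are descriptions.

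Clones of other genes with residuals most like the average of all member clones of their set, over 40 mice, were Acadm (r = 0.725), Acly (0.716), Clk1 (0.698), 1700019D03Rik (0.690) and Pole4 (0.689) in set A. In set B they were Tesmin (0.768), Amhr2 (0.745), Exoc6b (0.735), Lrrc41 (0.733) and Mphosph8 (0.732). They are the highest of 4753 clones compared in set A and 4853 in set B. High values are therefore partly a result of the picking, and no test was run. The Tesmin clone lies 1 spot number from Psmb5 (residual r = 0.604 between these clones). With the single member of nearest spot number, r ran from -0.367 (Acadm with Psmc3) to 0.712 (Acly with Psmd8). After subtraction of neighbouring spots 1700019D03Rik had 0.292 and Mphosph8 0.431, while Acadm had 0.789 and Tesmin 0.831.

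The genes that work beside the proteasome gave no calls either. Limma called 0 of 37 clones of 21 partner and regulator genes, 0 of 7 clones of ubiquitin-like and activating enzyme genes, 0 of 47 clones of 27 ubiquitin-conjugating enzyme genes and 0 of 12 clones of 12 antigen presentation and interferon genes, in each comparison. With age, 22 of 37, 5 of 7, 24 of 47 and 8 of 12 had slopes above 0, and 16 of 37, 4 of 7, 28 of 47 and 6 of 12 were higher in males. The conjugating enzyme Ube2d3 (spot 3167) came nearest, 0.193 array SD lower in males (estimate -0.193 ± 0.0499, adjusted p = 0.228). Ube2q1 (spot 15122), a second one, sloped by 0.0929 ± 0.0276 per year (adjusted p = 0.821).

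Among the partners, Nploc4 (spot 4545), an adaptor of the unfolding enzyme that hands substrates to the proteasome, sloped by 0.0657 ± 0.0246 per year (adjusted p = 0.937 in limma). Nfe2l1 (spot 596), the transcription factor known to raise subunit genes when proteasome activity falls, had a male minus female estimate of -0.111 ± 0.0511 (adjusted p = 0.982). Tap2 (spot 14460), which carries peptides made by the proteasome to antigen-presenting molecules, had a difference of 0.202 ± 0.0573 for 169 to 194 against 17 to 44 days (adjusted p = 0.933). The 3 clones that match by name only, of Psmc3ip and Psme3ip1, sloped by 0.0471 ± 0.0301, 0.0567 ± 0.0469 and 0.00297 ± 0.0302 per year, and none was called in any comparison.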

How the data were processed

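Total RNA of each kidney was copied into radioactively labelled cDNA and hybridised to nylon filters, per the labels' protocols. The deposited values are scores, centred to mean 0 and SD 1 per array, as the values of each column show; the sources used here do not give the image reading, background correction, scale before centring, clone sequences or spot layout. Spots were named through the platform annotation.

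Scores were quantile normalized within each set of 8448 clones and fitted with limma 3.58.1 in R 4.3.3 (lmFit, eBayes): age in years of 365 days with sex as a term, and the 8 group means for the other comparisons. Benjamini-Hochberg adjustment ran over 16896 clones, and an adjusted p under 0.05 was a call. The replicates are separate mice, and their number limits the precision. Columns of values left out numbered 0. The fits were tested on simulated data.

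The members, gene lists and naming rule were chosen with earlier results of these data known. Named are the 3 clones with the smallest p in each direction per comparison, cutting subunits, genes whose clones differ in sign and the widest age spans. Alternatives were the round as a block, deposited scores, array weights, other age terms, left-out mice and subtraction of neighbouring spots; the last, and the age spans without single mice, were added after the data were seen; the mean was tried before the median and gave more false calls on simulated data.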

Additional observations from a re-analysis of the deposited data

Results flagged for a closer look

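In 10 of 160 groups of 5 mice (20 measures), 1 mouse lay farther from the next than 0.71 of the group's range; chance gives about 1 in 20 groups. At Psma3 (spot 2606) a female of 17 to 44 days, replicate 2, scored 1.13 beside 0.754 in the next mouse, and at spot 492 a male of 169 to 194 days, replicate 5, scored -0.173 beside -0.554. At Psmd7 (spot 782) a female of 704 to 743 days, replicate 1, scored -0.0514 beside 0.229. At Psmg3 (spot 4886) a male of 169 to 194 days, replicate 4, scored 0.922 beside -0.107, and a female of 704 to 743 days, replicate 3, scored 0.0455 beside -0.0893. At Psmd3 (spot 3198) a male of 704 to 743 days, replicate 5, scored 0.0975 beside 0.0298. At Psmd2 (spot 4667) a male of 17 to 44 days, replicate 1, scored 1.24 beside -0.976. At Psmc1 (spot 10858) a female of 169 to 194 days, replicate 4, scored 0.189 beside -0.0373. At Psmb1 (spot 6) a male of 169 to 194 days, replicate 3, scored 1.29 beside 1.67. The core average of a female of 704 to 743 days, replicate 4, was -0.106 beside -0.0176. Her set B array stood apart from the rest. So did the set A arrays of the males flagged at Psmd2 (17 to 44 days, replicate 1) and Psmg3 (169 to 194 days, replicate 4).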

How the results depend on the processing

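The alternative fits gave 301 results, counted per fit and comparison, and in each of them 0 of the 52 proteasome clones were called. These fits overlap, since 40 of them left out 1 mouse each. The lowest adjusted p in limma was 0.323 (age slope, neighbouring spots subtracted and the round as a block). Of 24 named values, 21 kept their sign in every alternative fit of their comparison that held the clone. Over all clones, the number called moved from 0 for the slope to 2 with the round as a replicate block, 2 with array weights, 1 with ordinary least squares and 1 with neighbouring spots subtracted (1 with the round as a block too, 1 with a mean in place of the median). For any age difference it moved from 0 to 1 with the block, 1 without the mice whose array stood apart, 1 with array weights and 5 with neighbours and block. For 169 to 194 against 17 to 44 days it moved from 0 to 1 without the 5 mice of 17 to 21 days and 1 with neighbours and block, and for 704 to 743 against 169 to 194 days to 1 with array weights, 1 with neighbours subtracted and 3 with neighbours and block. For sex it moved from 18 to 11 without the 5 youngest mice, 37 with neighbours subtracted, 45 with the block too and 30 with the mean, and was 19 with the replicate block alone. The causes were not tested. The block changed no other call; mean residual r within a round was 0.145 (set A) and 0.197 (set B), lowest for an array at -0.0554 and -0.152, and 24 and 28 of 40 arrays were closest to their own round, a hint from the data that rounds pair the mice. Psmd7 (spot 782) turned its slope to 0.00115, 0.00152 with the block and 0.00533 with the mean, which also turned its sex difference to 0.00495. Leaving out 1 mouse at a time, the slope count ran from 0 to 1 and the sex count from 16 to 20, and Psmd2 (spot 4667) at 169 to 194 against 17 to 44 days ran from -0.327 to 0.00319. The number of mice and dim spots (14 of 52) limit what could be seen.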
